A study of Homo sapiens with 12 samples.

Results

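The translation initiation and elongation factors are 58 of the 62703 gene rows of the count table. They were chosen by name: protein-coding genes whose symbols start with EIF1 to EIF6, without the EIF2AK kinases and EIF1AY, plus EEF1A1, EEF1B2, EEF1D, EEF1G, EEF2, PABPC1 and PABPC4. The rule uses names alone. Of the 58 genes, 54 passed the filter on low counts and were tested, among 15920 genes in all. EEF1G (0 counts in all 12 libraries), EIF3CL (0 to 5 counts), EIF4E1B (0 to 9 counts) and EIF4EBP3 (0 to 2 counts) did not pass.

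The libraries were made from HCT116, a human colorectal cancer line, transfected for 48 h with a control siRNA or with an siRNA against HNRNPU, each at 2 nM; the labels call the control cells wild-type. hnRNP U is a nuclear and cytoplasmic RNA-binding protein. Poly(A) RNA was sequenced from total lysate and from heavy polysomes (HP), the mRNAs that carried many ribosomes when a cycloheximide-treated lysate was run on a sucrose gradient. The design gave 4 groups of 3 libraries, from 3 independent experiments per the study's legends: control siRNA total RNA, hnRNP U siRNA total RNA, control siRNA HP RNA and hnRNP U siRNA HP RNA. Which of the study's hnRNP U siRNAs was used for these libraries is not given in the sources used here, so an effect of that siRNA on other genes cannot be told apart from silencing.

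Initiation is the step at which a small ribosomal subunit is loaded with initiator tRNA, brought to the capped end of an mRNA and moved to its start codon. eIF2 with its exchange factor eIF2B delivers the tRNA, eIF3 holds the complex on the small subunit, and the cap-binding protein eIF4E, the scaffold eIF4G and the helicase eIF4A open the mRNA. eEF1 and eEF2 then feed aminoacyl-tRNAs and move the ribosome along. The mRNAs of elongation factors and of some initiation factors are classical TOP mRNAs, which start with a C and a run of pyrimidines and are controlled together through mTOR.

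Total counts ran from 30305012 to 39761103 per library, and values below are in CPM, a gene's counts relative to the size of its library, with library sizes scaled by the trimmed mean of M-values (TMM). CPM is a share of a library, so a change in the overall amount of polysomal RNA does not appear in it, and fewer cells of a type and less RNA per cell cannot be told apart. HNRNPU was at 992, 1106 and 986 CPM in control total RNA and at 168, 149 and 160.4 CPM after hnRNP U siRNA. In HP RNA it was at 1022, 1145 and 1074 CPM in control cells and at 82.4, 75.2 and 77.1 CPM after silencing, and the groups did not overlap in either fraction. The log2 fold change was −2.70 ± 0.06 (SE) in total RNA and −3.82 ± 0.06 in HP RNA (adjusted p = 3.1e-15 and 3.8e-18, edgeR quasi-likelihood test). The epithelial markers EPCAM, CDH1, KRT8, KRT18, KRT19 and CDX2 were present in all libraries and CEACAM5 was at 0. KRT19, CDX2 and EPCAM rose after silencing, by 0.34, 0.37 and 0.23 on the log2 scale in total RNA and by 0.44, 0.42 and 0.34 in HP RNA, KRT18 fell by 0.12 in total RNA, and KRT8 and CDH1 did not pass in either fraction. Of the markers of other cell types, PTPRC, PECAM1 and COL1A2 were at or near 0 (at most 0.121 CPM), VIM was at 6.23 to 13.6 CPM and COL1A1 at 6.68 to 17.4 CPM. COL1A1 fell after silencing, from a mean of 16.7 to 9.98 CPM in total RNA and from 15.0 to 7.62 CPM in HP RNA, and the part of these marker changes in the results below was not tested.

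Several members could not be measured as genes of their own in these counts. The sequence of each member's canonical transcript was cut into 75-nt windows, the length of a read, and each window was searched for in the transcripts of other genes. Of the 58 members, 31 shared under 1% of their windows and 6 shared over 50%. EIF4A1, the main eIF4A helicase of most cells, shared all of its windows with genes annotated over the same bases, among them the readthrough gene SENP3-EIF4A1 (82.7%). It was listed at 20 to 81 counts, against 8225 to 19668 for its paralogue EIF4A2, 1.16% of whose windows were shared. EEF1G, a subunit of the eEF1 complex, shared 95.2% with an overlapping protein-coding gene and was at 0. EIF3C shared 97.9% with EIF3CL and was left with 165 to 379 counts. For these genes a count reflects the reads that could be assigned, and a level cannot be read from it. EIF3L, at 4501 to 8060 counts, shared 52.1% of its windows, mostly with an overlapping noncoding gene (51.8%), so its level is also uncertain.

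**Figure D1:**
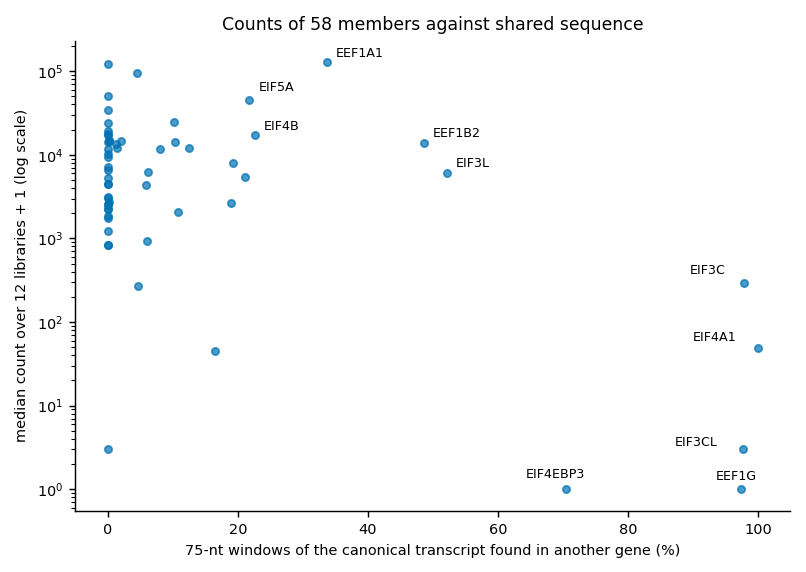
Median count over 12 libraries plus 1 (vertical axis, log scale) against the percentage of 75-nt windows of the canonical transcript found in another gene (horizontal axis) for the 58 members. EIF4A1, EIF3C, EIF3CL and EEF1G lie at 97% or more on the horizontal axis and none has a median above 290 counts.

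The members together took 2.59% ± 0.04 (SD, n = 3) of all counts in control total RNA and 2.66% ± 0.02 after hnRNP U siRNA. In HP RNA the share was 2.30% ± 0.02 in control cells and 2.43% ± 0.01 after silencing, and every silenced HP library was above every control HP library. Per length, as CPM per kilobase of the canonical transcript in control total RNA, PABPC1, the poly(A)-binding protein, led with 1550.3, followed by EEF2, the translocase, with 1133 and EEF1A1, which carries tRNAs to the ribosome, with 1115. EIF5A, which helps ribosomes through difficult peptide bonds, was at 809, EEF1B2 at 478 and EIF4G2, a relative of eIF4G without the eIF4E-binding part, at 475. In CPM, EEF1A1 (3831 to 4067) and EEF2 (3482 to 3649.7) did not overlap in control total RNA. Reads that could not be assigned to a single gene lower some of these levels, since EEF1B2 shared 48.6% of its windows with other genes, EEF1A1 33.7% and EIF5A 21.8%, whereas EEF2 and EIF4G2 shared none, so the order of EEF2 and EEF1A1 is not settled.

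After hnRNP U siRNA, 23 members were higher and 10 lower in total RNA at an adjusted p under 0.05. Among all 15920 genes tested, 28.0% were called higher and 29.3% lower. In HP RNA, 23 members were higher and 6 lower, beside 25.5% of all genes higher and 26.3% lower. The shares of all genes in each fraction also stand beside the counts by role below. The members' median log2 fold change was 0.06 in total RNA and 0.12 in HP RNA, and the median of all genes was 0.00 and 0.01. Both fractions called 24 members, 18 higher and 6 lower in each, 9 members were called in total RNA alone, 5 in HP RNA alone and 16 in neither. The changes were small: no member reached a log2 change of 1 in total RNA and EIF4A2 was the single member to do so in HP RNA, while 8.78% of all genes did in total RNA and 10.9% in HP RNA. The 3 silenced libraries lay wholly above the 3 control libraries for 26 members in total RNA (48.1%, beside 30.8% of all genes) and for 32 in HP RNA (59.3%, beside 31.8%), and wholly below for 12 (22.2%, beside 31.2%) and 7 (13.0%, beside 26.5%).

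EIF4A2, an RNA helicase that unwinds the region before the start codon, had the largest rise of all members. It lies on the plus strand of chromosome 3 (GRCh38, 186783205 to 186789897, GENCODE 44). In total RNA it was at 301, 261 and 268 CPM in control cells and at 464, 456 and 457 CPM after hnRNP U siRNA. In HP RNA it was at 276, 249.8 and 247 CPM in control cells and at 589, 592 and 561 CPM after silencing. The control libraries of both fractions lay together, the silenced libraries lay above them without overlap, and the silenced HP libraries lay above the silenced total libraries. The log2 fold change was 0.73 ± 0.05 (SE) in total RNA and 1.14 ± 0.06 in HP RNA (adjusted p = 2.7e-09 and 3.2e-11, edgeR). Reads of EIF4A1 could not be set beside it: at 1.63 to 2.30 CPM in total RNA of control cells, EIF4A1 gave a log2 change of 0.05 with a 95% interval of −0.32 to 0.41.

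The other members of the cap complex group, which counts EIF4G2 only as a relative of eIF4G, differed in direction. EIF4E, the cap-binding protein itself, was at 54.7, 56.1 and 57.4 CPM in control total RNA and at 72.2, 72.3 and 69.9 CPM after silencing. In HP RNA it was at 67.2, 81.0 and 69.0 CPM in control cells and at 93.1, 103 and 89.9 CPM after silencing, again without overlap. It rose by 0.35 ± 0.04 on the log2 scale in total RNA and by 0.36 ± 0.07 in HP RNA (adjusted p = 2.7e-06 and 0.00032, edgeR). EIF4G2, a scaffold used at mRNAs that do not depend on eIF4E, fell. It was at 1751, 1881 and 1770.4 CPM in control total RNA and at 1390.3, 1281 and 1260.4 CPM after silencing. In HP RNA it was at 1635, 1877 and 1578 CPM and then at 1304, 1216 and 1179 CPM, and the groups did not overlap in either fraction. The log2 fold change was −0.46 ± 0.05 in total RNA and −0.50 ± 0.06 in HP RNA (adjusted p = 3.9e-07 and 2.7e-06, edgeR). The scaffolds EIF4G1 (0.02 in total RNA, 95% interval −0.10 to 0.15) and EIF4G3 (−0.09, adjusted p = 0.071) did not pass the edgeR test. Of the 8 members of this group, 3 were higher and 2 lower in total RNA, and 2 higher and 1 lower in HP RNA. Those lower in total RNA were EIF4G2 and EIF4B, an eIF4A cofactor (−0.12 ± 0.04, adjusted p = 0.013, edgeR). In HP RNA it was EIF4G2 alone.

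The relatives and repressors of eIF4E were 7 genes, of which 5 were tested, 2 higher and 2 lower in total RNA and 3 higher and 1 lower in HP RNA. EIF4E3, an atypical cap-binding relative, was at 15.0, 13.4 and 14.7 CPM in control total RNA and at 8.02, 7.93 and 9.02 CPM after silencing. Its HP values were 6.81, 6.17 and 6.58 CPM in control cells and 3.26, 3.82 and 4.35 CPM after silencing. It fell by 0.79 ± 0.08 on the log2 scale in total RNA and by 0.81 ± 0.13 in HP RNA (adjusted p = 3.1e-07 and 3.4e-05, edgeR). EIF4EBP2, which binds eIF4E and blocks its contact with eIF4G, was at 159.7, 152 and 155 CPM in control total RNA and at 184, 179 and 176 CPM after silencing. Its HP values were 86.2, 68.3 and 77.2 CPM in control cells and 113, 94.7 and 116 CPM after silencing. It rose by 0.20 ± 0.04 in total RNA and by 0.45 ± 0.08 in HP RNA (adjusted p = 0.00037 and 0.00019, edgeR). Its paralogue EIF4EBP1 rose by 0.28 ± 0.05 in total RNA (adjusted p = 0.00024).

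Among the 11 factors of the start codon and the ternary complex of eIF2, GTP and initiator tRNA, 5 were higher and 2 lower in total RNA, and 3 higher and 2 lower in HP RNA. EIF5B, the GTPase that joins the large subunit at the start codon, was at 338, 370.3 and 332 CPM in control total RNA and at 474, 509 and 466 CPM after silencing. Its HP values were 451, 507 and 529 CPM in control cells and 717, 795 and 732 CPM after silencing. It rose by 0.47 ± 0.05 in total RNA and by 0.56 ± 0.06 in HP RNA (adjusted p = 3.7e-07 and 4.5e-07, edgeR). EIF2D, which can deliver tRNA without GTP and takes part in recycling, was at 51.1, 49.3 and 47.4 CPM in control total RNA and at 63.8, 59.1 and 60.6 CPM after silencing. Its HP values were 40.0, 41.1 and 38.3 CPM in control cells and 56.6, 50.1 and 52.4 CPM after silencing, and it rose by 0.31 ± 0.05 and 0.38 ± 0.06 (adjusted p = 2.6e-05 and 9.1e-05). EIF5, which triggers GTP hydrolysis by eIF2, went the other way. It was at 303, 338 and 331 CPM in control total RNA and at 265, 269 and 254 CPM after silencing. The HP values were 388, 439.8 and 409.6 CPM in control cells and 365, 366 and 338 CPM after silencing, and it fell by 0.31 ± 0.05 and 0.25 ± 0.06 (adjusted p = 2.5e-05 and 0.0011). Silenced and control libraries overlapped in neither fraction for any of the named start-codon factors. The eIF2 subunits EIF2S1 and EIF2S2 rose in total RNA by 0.12 ± 0.04 and 0.14 ± 0.04 and EIF2S3 did not pass (0.09 ± 0.04, adjusted p = 0.09). EIF2S3B, a copy of EIF2S3, had 24 to 57 counts and did not pass in either fraction.

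The 5 genes of eIF2B, the exchange factor that recharges eIF2 with GTP, were 4 higher and 0 lower in total RNA and 3 higher and 0 lower in HP RNA. EIF2B4 had the largest rise of the 5, from 49.6 ± 1.92 (SD, n = 3) to 61.6 ± 2.33 CPM in total RNA (log2 fold change 0.31 ± 0.05) and from 87.4 ± 5.26 to 111 ± 4.36 CPM in HP RNA (0.31 ± 0.06). EIF2B1 rose by 0.26 ± 0.04 and EIF2B2 by 0.20 ± 0.05 in total RNA. EIF2B3 (0.15 ± 0.06, adjusted p = 0.048) was the weakest call and did not pass in HP RNA (adjusted p = 0.078). EIF2B5, the catalytic subunit, was at 62.1 ± 2.17 CPM in control cells and at 62.3 ± 1.98 CPM after silencing in total RNA (0.00, 95% interval −0.09 to 0.09).

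Of the 13 eIF3 subunits, 3 were higher and 2 lower in total RNA, and 7 higher and 1 lower in HP RNA. EIF3C was at 6.08, 6.59 and 6.40 CPM in control total RNA and at 10.2, 9.66 and 9.34 CPM after silencing. The HP values were 5.50, 5.80 and 5.01 CPM in control cells and 10.5, 10.2 and 9.63 CPM after silencing. The log2 fold change was 0.61 ± 0.08 in total RNA and 0.86 ± 0.10 in HP RNA (adjusted p = 1.1e-05 and 1.6e-06, edgeR), on the reads that could be told from EIF3CL. EIF3I, a subunit of the same holding complex that gave the largest fall of the 13, was at 305, 316 and 305 CPM in control total RNA and at 267, 267 and 257 CPM after silencing. The HP values were 558, 569 and 589 CPM in control cells and 507, 523 and 496 CPM after silencing. It fell by 0.23 ± 0.04 in total RNA and by 0.20 ± 0.05 in HP RNA (adjusted p = 8.1e-05 and 0.0018). EIF3G rose in total RNA by 0.22 ± 0.04 and EIF3K by 0.16 ± 0.04, and EIF3G, EIF3H, EIF3K, EIF3L, EIF3F and EIF3M were higher in HP RNA by 0.14 to 0.27, the calls of EIF3F and EIF3M being lost in 5 of 13 alternatives each. The large core subunits EIF3A and EIF3B did not pass in either fraction, with 95% intervals of −0.12 to 0.08 and −0.14 to 0.05 in total RNA.

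Of the other initiation factors, EIF4A3, an eIF4A relative that works in the exon junction complex, rose by 0.20 ± 0.04 in total RNA and 0.21 ± 0.05 in HP RNA. EIF6, which keeps the large subunit from joining too early, rose by 0.26 ± 0.05 and 0.28 ± 0.05, and EIF5A by 0.15 ± 0.04 and 0.16 ± 0.05. EIF5A2, the less widely expressed paralogue of EIF5A, was at 28.7, 26.7 and 29.4 CPM in control total RNA and at 25.1, 24.6 and 25.2 CPM after silencing. The HP values were 22.9, 22.1 and 20.9 CPM in control cells and 19.6, 15.9 and 19.1 CPM after silencing. It fell by 0.19 ± 0.05 and 0.30 ± 0.09 (adjusted p = 0.0071 and 0.0064), but each call missed the threshold without 1 library: control siRNA total replicate 3 (adjusted p = 0.0502) and hnRNP U siRNA HP replicate 2 (adjusted p = 0.0503).

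The elongation factors moved little in total RNA. EEF1A1 was at 4067, 3845 and 3831 CPM in control total RNA and at 3827, 3897 and 3828 CPM after silencing, overlapping groups with a log2 change of −0.03 (95% interval −0.12 to 0.06). EEF2 was at 3649.7, 3598 and 3482 CPM in control total RNA and at 3875, 4112 and 4029 CPM after silencing. In HP RNA EEF2 was at 2723, 2781 and 3139 CPM and then at 3492, 3637 and 3889 CPM, and it rose by 0.16 ± 0.04 and 0.32 ± 0.06 (adjusted p = 0.0054 and 0.00019, edgeR). EEF1D, a nucleotide exchange subunit of eEF1, fell by 0.13 ± 0.04 in total RNA (adjusted p = 0.011, edgeR) and was at 0.02 ± 0.05 in HP RNA. Its call was lost in 2 of 13 alternatives, without hnRNP U siRNA total replicate 2 or without replicate 3. PABPC1 did not pass in either fraction (−0.10, adjusted p = 0.055 in total RNA and 0.08, adjusted p = 0.21 in HP RNA), whereas its paralogue PABPC4 rose by 0.22 ± 0.04 and 0.20 ± 0.05.

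**Figure D2:**
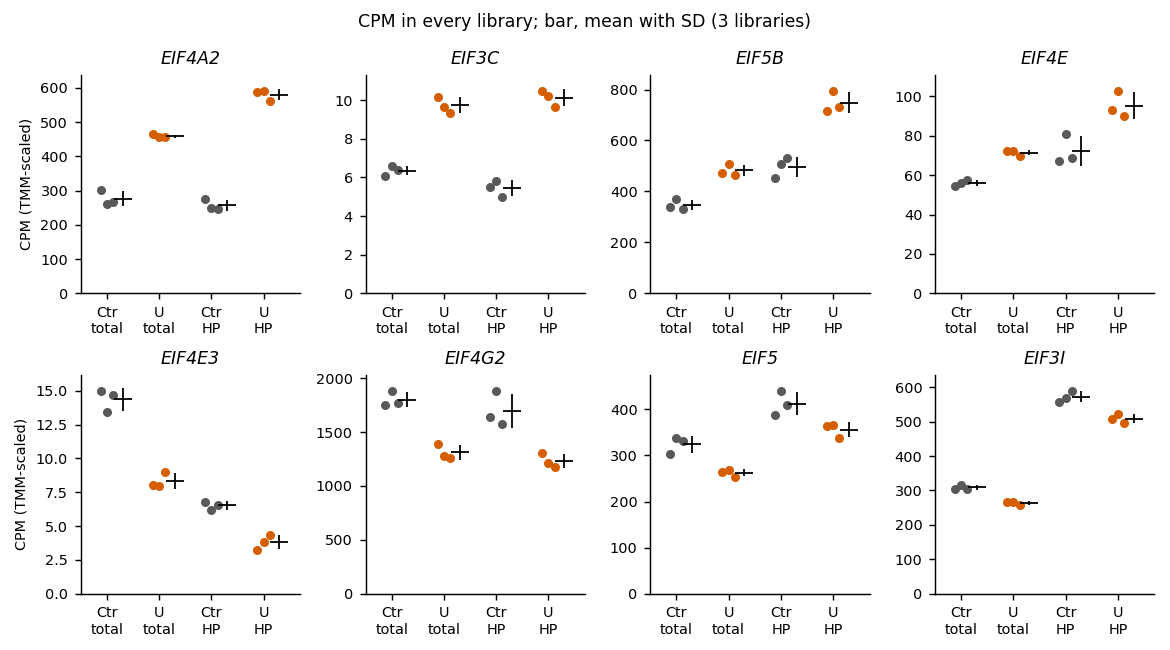
CPM (vertical axes, starting at 0) in each of the 12 libraries for the 4 members with the largest called rise and the 4 with the largest called fall in total RNA, leaving out those with a mean log2 CPM below 3. Grey points are control siRNA libraries, orange points hnRNP U siRNA libraries, and bars give the mean and SD of 3 libraries. EIF4A2, EIF3C, EIF5B and EIF4E were higher after silencing in both fractions, and EIF4E3, EIF4G2, EIF5 and EIF3I lower, with no overlap of groups within a fraction.

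The siRNA effect on the ratio of HP to total RNA was tested with an interaction term in a fit to the 12 libraries. Of the 54 members, 1 was called higher and 0 lower, beside 0.0817% of all genes higher and 0.0817% lower, and 11 members had an unadjusted p under 0.05, beside 7.04% of all genes (DESeq2 also called 1 member). The member called was EIF4A2. Its log2 ratio of HP to total CPM was −0.12, −0.06 and −0.12 in the 3 control pairs of same-numbered libraries and 0.34, 0.38 and 0.29 after silencing. HP against total was thus −0.10 ± 0.06 in control cells, which did not pass (adjusted p = 0.16), and 0.31 ± 0.04 after silencing (adjusted p = 1e-06, edgeR). The interaction was 0.44 ± 0.08 on the log2 scale (95% interval 0.28 to 0.60, adjusted p = 0.0094, edgeR). Without hnRNP U siRNA HP replicate 2 it was 0.35 with an adjusted p of 0.15, and no member was called. For 50 of the 54 members the change in HP/total was under 0.25 on the log2 scale in either direction, and for 50 the whole 95% interval lay within 0.5 of 0.

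The values of the members leaned upward. The median change in HP/total was 0.07 for the members and 0.04 for all genes, and 48 of 54 members lay above 0 beside 60.9% of all genes. With DESeq2 size factors the median of all genes was 0.00 and that of the members 0.04. Without hnRNP U siRNA HP replicate 2 the medians were −0.04 and −0.02. The 8 tested genes of the TOP list (EEF1A1, EEF1B2, EEF1D, EEF2, PABPC1, EIF3E, EIF3F and EIF3H) all lay above 0, at 0.10 to 0.21 with a median of 0.14, also in each alternative run. None passed the adjusted test and 6 had an unadjusted p under 0.05 (edgeR), beside the same 7.04% of all genes. Outside the list, EIF4A2, EIF4EBP2 (0.28), EIF3C (0.28), EIF3M (0.14) and EIF3L (0.12) also had an unadjusted p under 0.05. A block for culture took same-numbered total and HP libraries of an siRNA as pairs. The titles of each pair share a prefix and call the total library the input, but the labels do not state a shared culture. The main fit did not use this pairing. With the block, 140 of all 15920 genes were called in place of 26, and 1 of the 8 TOP-list genes was among them. PABPC1 had the highest value of the 8, with log2 ratios of HP to total CPM of −1.95, −1.95 and −1.82 in control cells and −1.69, −1.73 and −1.69 after silencing, without overlap (interaction 0.21 ± 0.06, adjusted p = 0.37, and 0.026 with culture as a block). EEF2 went from −0.42, −0.37 and −0.15 to −0.15, −0.18 and −0.05 (0.19 ± 0.08, adjusted p = 0.62), with the 2 groups overlapping.

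**Figure D3:**
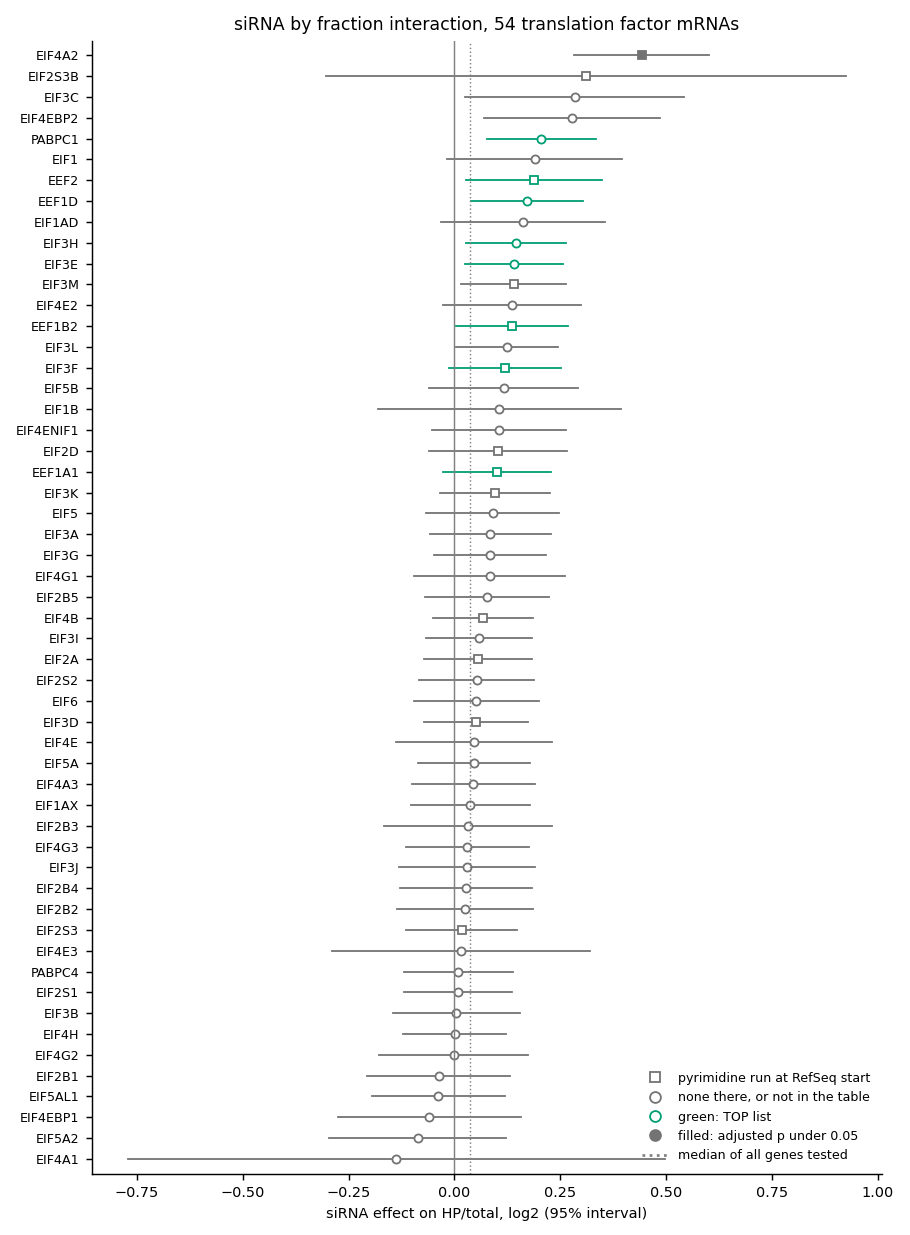
siRNA effect on HP/total (horizontal axis, log2) for the 54 tested members in order of its size, with 95% intervals from the edgeR interaction over 12 libraries. The filled point is EIF4A2, green marks the 8 tested genes of the TOP list, squares mark genes with a C and pyrimidine run at the RefSeq start, and the dotted line is the median of all genes tested (0.04).

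The start of each mRNA was read from RefSeq promoter sequences (GRCh38.p14), which held 47 of the 58 members. A TOP-like start was defined as C at the annotated start followed by at least 4 bases that are each C or T, on the gene's own strand. Of the 47 members, 13 (27.7%) had it, beside 7.15% of the 11182 tested genes in that table and 5.14% of all 27305 of its genes. Within 5 nt of the start, 22 of the 47 (46.8%) held such a run, beside 29.2% of the tested genes and 25.2% of all. The 4 elongation and eIF3 genes of the TOP list that matched are shown with EIF4A2 and its cofactor EIF4B, because these starts carry the feature and EIF4A2 is the member called in HP/total. The starts of EEF1D, PABPC1, EIF3E and EIF3H were not analysed here. Each line gives 10 bases before and 20 bases from the annotated start, 5′ to 3′, and capitals mark the pyrimidine run that begins at the start.
EEF1A1 (chr6:73521013-73521042, minus strand): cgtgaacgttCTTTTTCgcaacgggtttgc
EEF1B2 (chr2:206159885-206159914, plus strand): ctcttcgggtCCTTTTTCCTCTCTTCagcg
EEF2 (chr19:3985444-3985473, minus strand): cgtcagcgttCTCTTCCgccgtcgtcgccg
EIF3F (chr11:7987327-7987356, plus strand): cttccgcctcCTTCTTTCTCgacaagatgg
EIF4A2 (chr3:186783567-186783596, plus strand): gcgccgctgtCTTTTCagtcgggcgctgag
EIF4B (chr12:53006446-53006475, plus strand): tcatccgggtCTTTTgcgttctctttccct

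The runs were 7 bases long in EEF1A1 and EEF2, 16 in EEF1B2, 10 in EIF3F, 6 in EIF4A2 and 5 in EIF4B. In HP/total the 13 members with the run all lay above 0, at 0.02 to 0.44 (EIF4A2) with a median of 0.10. Of the 31 tested members without it, 26 lay above 0, with a median of 0.04. Among all genes tested, 60.9% lay above 0, with a median of 0.04. In total RNA the order was the other way, with a median siRNA effect of 0.03 with the run and 0.09 without. The split was not repeated without hnRNP U siRNA HP replicate 2, and a part of the run in these values was not tested. Annotated starts are single positions, and the start used in HCT116 was not measured here.

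An RNA G-quadruplex motif, here 4 stretches of 3 or more G spaced by 1 to 7 nt, was present in some annotated transcript of 19 of the 54 tested members (35.2%, beside 44.6% of 12758 protein-coding genes tested) and in the canonical transcript of 10 (18.5%, beside 26.7%). Of the 19 members with the motif, 7 were higher and 4 lower in total RNA and 6 higher and 1 lower in HP RNA. Of the 35 without it, 16 were higher and 6 lower in total RNA and 17 higher and 5 lower in HP RNA. Among all genes tested, 28.0% were higher and 29.3% lower in total RNA, and 25.5% higher and 26.3% lower in HP RNA. The median change in HP/total was 0.08 with the motif and 0.05 without. EIF4A2 held no such motif in any annotated transcript.

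The ratio of HP to total RNA differed far more among the members than between siRNAs. In control cells 31 members were higher in HP RNA and 13 lower, beside 33.1% of all genes higher and 32.0% lower. With hnRNP U siRNA 36 were higher and 14 lower, beside 34.4% and 33.7%. The members' median log2 ratio was 0.29 in control cells and 0.37 after silencing, and that of all genes was −0.02 in both. The 2 comparisons use different libraries.

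EIF6 had the highest ratio of HP to total RNA in control cells. It was at 98.7, 108 and 103 CPM in total RNA and at 198, 200.2 and 198 CPM in HP RNA, a log2 ratio of 0.95 ± 0.05 (adjusted p = 1e-09, edgeR). EIF3I followed with 305, 316 and 305 CPM in total RNA and 558, 569 and 589 CPM in HP RNA (0.89 ± 0.05, adjusted p = 1.2e-09). EIF4A3 was at 280.2, 303 and 278 CPM in total RNA and at 527, 552 and 514 CPM in HP RNA (0.89 ± 0.05). EIF3K, a small outer subunit of eIF3, was at 132, 138 and 136 CPM in total RNA and at 241, 240.2 and 260.2 CPM in HP RNA (0.87 ± 0.05). These neighbours in the order had 95% intervals that overlapped. All 5 eIF2B genes were higher in HP RNA with either siRNA, at 0.60 to 0.86 in control cells and 0.54 to 0.86 after silencing. Of the 13 eIF3 subunits, 10 were called higher and 2 lower with either siRNA. Those called lower were EIF3A (−0.33 ± 0.05 in control cells) and EIF3L (−0.36 ± 0.05). EIF3C was also below 0 in control cells but did not pass (−0.23 ± 0.10, adjusted p = 0.068, edgeR). EIF3L carries the limit on shared windows given above.

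PABPC1 stood at the other end. It was at 4455, 4509.8 and 4341 CPM in control total RNA and at 1156, 1165 and 1231 CPM in control HP RNA, a log2 ratio of −1.91 ± 0.05 (adjusted p = 2.2e-12), and at −1.72 ± 0.04 after silencing. EIF4E3 was at 15.0, 13.4 and 14.7 CPM in total RNA and at 6.81, 6.17 and 6.58 CPM in HP RNA of control cells (−1.14 ± 0.09, adjusted p = 3.2e-08). EIF4EBP2 was at 159.7, 152 and 155 CPM in total RNA and at 86.2, 68.3 and 77.2 CPM in HP RNA (−1.01 ± 0.07, adjusted p = 1e-08). PABPC4 was at 408, 417 and 399.7 CPM in total RNA and at 268, 271 and 277 CPM in HP RNA (−0.59 ± 0.05, adjusted p = 4.9e-08). Both poly(A)-binding proteins lay below 0, as did EIF4EBP1 (−0.41 ± 0.08) beside EIF4EBP2. The elongation factors were mixed, with EEF1D at 0.61 ± 0.05, EEF1B2 at 0.02 ± 0.05, EEF1A1 at −0.20 ± 0.05 and EEF2 at −0.31 ± 0.06. EIF4A1 also had a low ratio (−1.25 ± 0.21), from 20 to 81 counts.

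**Figure D4:**
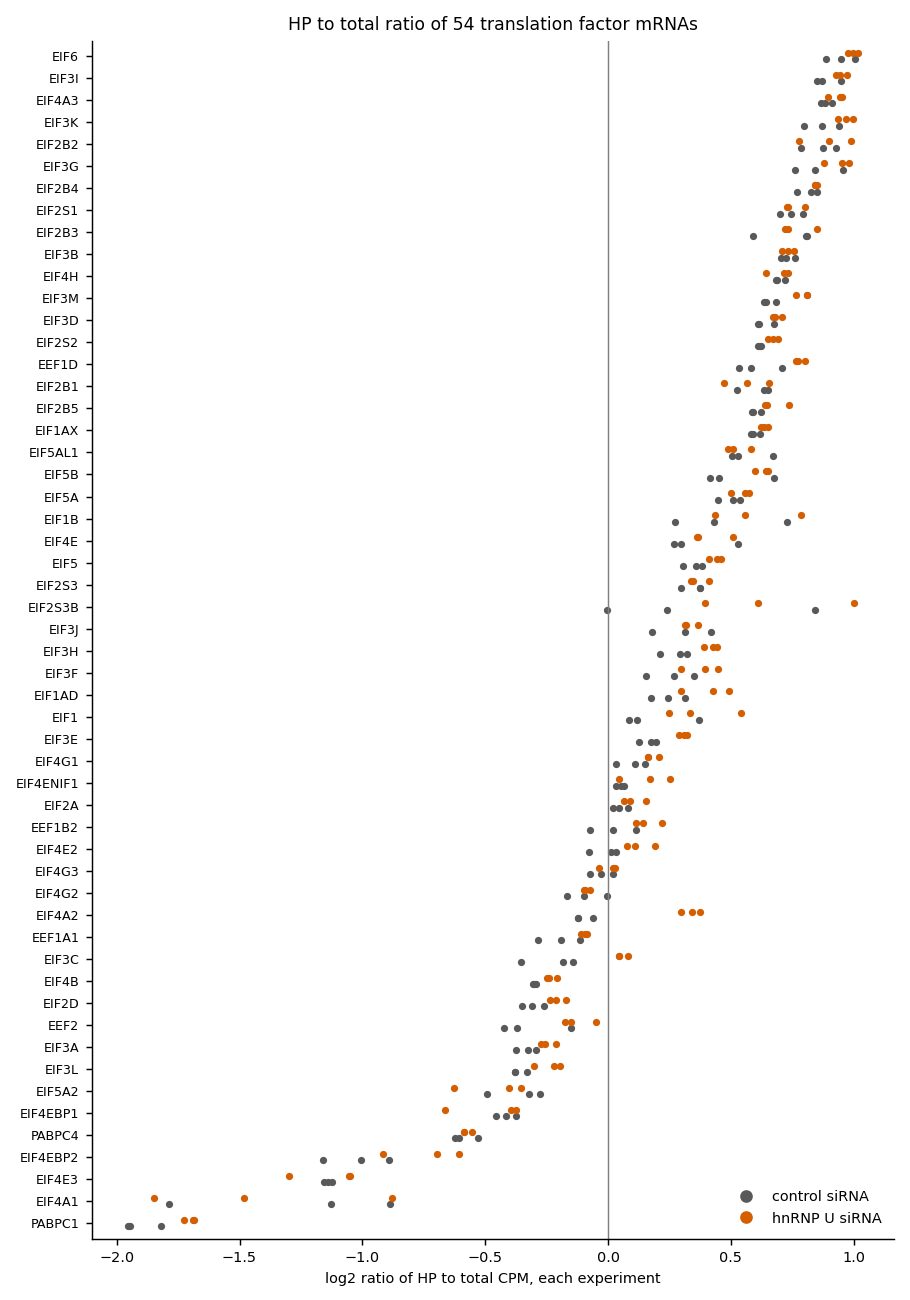
Log2 ratio of HP to total CPM (horizontal axis) for each of the 3 pairs of same-numbered libraries for the 54 tested members, in order of the control estimate, with control siRNA in grey and hnRNP U siRNA in orange. The order runs from PABPC1 at about −1.9 to EIF6 at about 0.95, and the orange points of EIF4A2 stand apart from its grey points.

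A list of 25 genes that control these factors was examined beside them: the eIF2 kinases and phosphatase subunits, the mTOR pathway, the MNK kinases, PDCD4, the PABP-interacting proteins and the enzymes that modify eIF5A. In total RNA 8 were higher and 6 lower, beside 28.0% and 29.3% of all genes. In HP RNA 6 were higher and 7 lower, beside 25.5% and 26.3%. These counts lie near the shares of all genes. In HP/total 0 were called and 1 had an unadjusted p under 0.05 (edgeR), beside 7.04% of all genes. The largest changes were falls. TSC1, an inhibitor of mTOR signalling, fell by 0.79 ± 0.06 in total RNA and by 0.89 ± 0.08 in HP RNA. PPP1R15B, the constitutive subunit of the eIF2 phosphatase, fell by 0.78 ± 0.04 and 0.88 ± 0.06. Related genes of the list went the other way in total and HP RNA. TSC2 rose by 0.24 ± 0.05 and 0.30 ± 0.06, and PPP1R15A by 0.26 ± 0.09 and 0.40 ± 0.08. Of the MNK kinases, MKNK2 rose by 0.59 ± 0.05 and 0.61 ± 0.09 and MKNK1 fell by 0.41 ± 0.07 and 0.68 ± 0.07. PDCD4, an inhibitor that binds eIF4A, went from 34.8 ± 5.82 (SD, n = 3) to 20.3 ± 1.81 CPM in total RNA and from 55.6 ± 11.1 to 32.3 ± 3.55 CPM in HP RNA (−0.78 ± 0.09 and −0.82 ± 0.11, adjusted p = 2.6e-06 and 7.2e-06).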

How the data were processed

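The authors trimmed single-end directional reads with Trim Galore, aligned them to hg38 with STAR and deposited 1 table of raw counts per Ensembl gene for the 12 libraries. The STAR version and strand setting are not given in the sources used here, so overlapping and antisense genes are uncertain. Gene identifiers were matched to GENCODE 44 (62639 of 62703). Libraries were grouped by their labels.

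Genes were kept by filterByExpr with a minimum count of 10, and counts were scaled by TMM and tested with edgeR 4.0.16 (glmQLFit, glmQLFTest, Benjamini-Hochberg over 15920 genes, threshold 0.05), for each fraction and siRNA in 6 libraries and for HP/total as an interaction in 12. SE and 95% intervals come from these fits. P-values measure the spread between 3 independent experiments. Replicates differed by more than sampling noise. DESeq2 1.42.0, other scalings, filters, blocks and left-out libraries were alternatives. The code was tested on simulated data.

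All members may be named. Values in each library are given for HNRNPU, members called in HP/total, the 4 largest called changes each way per fraction and the 4 highest and lowest HP to total ratios in control cells (mean log2 CPM of at least 3), and, added after their values were seen, EEF1A1 and EEF2. The members and lists were chosen with earlier results of these data known.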

Additional observations from a re-analysis of the deposited data

Results flagged for a closer look

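EIF4A2 was the single member whose siRNA effect differed between fractions by the test of that difference. The effect was 0.73 ± 0.05 (SE) on the log2 scale in total RNA and 1.14 ± 0.06 in HP RNA, and the interaction was 0.44 (adjusted p = 0.0094, edgeR, 0.35 to 0.50 over the alternatives with adjusted p of 1.4e-05 to 0.15). All 3 silenced pairs of same-numbered libraries had a higher HP to total ratio than all 3 control pairs. EIF4A1 shared all of its read-length windows with overlapping genes, and its part in this result was not tested. With 3 libraries a group, no test for a single outlying library was made.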

How the results depend on the processing

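Of the members called, 24 of 33 in total RNA, 19 of 29 in HP RNA, 42 of 44 for HP against total in control cells and 43 of 50 with hnRNP U siRNA passed in every alternative run, and no called member changed direction. Leaving out 1 library at a time gave 26 to 33 calls in total RNA, 22 to 28 in HP RNA, 43 to 45 and 48 to 51 for HP against total, and 0 to 1 in HP/total, the 0 being without hnRNP U siRNA HP replicate 2 (EIF4A2 at 0.35, adjusted p = 0.15). With culture as a block, which takes same-numbered HP and total libraries of an siRNA as pairs, HP/total had 2 calls among the members. The titles of such libraries share a prefix and call the total library the input, but the labels do not state a shared culture. The second call was PABPC1 (0.21, adjusted p = 0.026, edgeR), and all 15920 genes had 140 calls in place of 26. The RG4 motif was found in 10 members when the canonical transcript alone was used, and a pyrimidine run within 5 nt of the start in 22. The replicate block gave 37, 34, 1, 48 and 52 calls in the 5 comparisons. In their deviations from the group means, same-numbered total and HP libraries of an siRNA correlated by 0.05 to 0.13, each best with its own number. Between siRNAs the correlations were −0.00 to 0.08, and in total RNA replicates 1 and 2 correlated best with another number. Not every pair exceeded 0.1, and the blocks were kept as alternatives. The weakest calls (EIF2B3, EIF1B, EIF4E2, EIF3E and EIF4H in total RNA, EIF2A, EIF3F, EIF3M, EIF4EBP1 and EIF4ENIF1 in HP RNA) had changes under 0.20 and were lost under several alternatives. The cause was not tested.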

Other observations

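A further 19 genes that work beside the members, in scanning, cap binding, termination, recycling and ribosome rescue, were counted in the same fits, and 18 were tested. In total RNA 7 were higher and 5 lower, beside 28.0% and 29.3% of all genes. In HP RNA 8 were higher and 6 lower, beside 25.5% and 26.3%. In HP/total 0 were called and 0 had an unadjusted p under 0.05 (edgeR), beside 7.04% of all genes. CTIF, which works with the nuclear cap-binding complex, fell by 0.72 ± 0.08 (SE) in total RNA and by 0.69 ± 0.08 in HP RNA. DHX29, a helicase that helps the small subunit through structured leaders, went from 65.7 ± 3.24 (SD, n = 3) to 87.9 ± 3.27 CPM in total RNA and from 63.2 ± 4.42 to 93.8 ± 4.32 CPM in HP RNA, a rise of 0.42 ± 0.05 and 0.54 ± 0.06. EEF1A2, the paralogue of EEF1A1, fell by 0.31 ± 0.04 in total RNA and by 0.26 ± 0.05 in HP RNA, and PABPN1, the nuclear poly(A)-binding protein, rose by 0.30 ± 0.08 in HP RNA. In control cells 15 of the 18 were higher and 1 lower in HP than in total RNA, beside 33.1% and 32.0% of all genes. MCTS1 was highest (0.80 ± 0.06) and DENR, its partner in recycling, was the 1 called lower (−0.36 ± 0.05).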
